A study of Homo sapiens with 14 samples.

Results

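The nuclear genes of respiratory complexes II, III, IV and V, with cytochrome c, were followed through genome-wide pooled CRISPR screens in RKO and SW620, established human colorectal cancer cell lines. Members were taken by gene symbol: those starting with UQC, with COX and a digit, or with ATP5, and 13 named genes (SDHA, SDHB, SDHC, SDHD, SDHAF1, SDHAF2, CYC1, CYCS, SURF1, SCO1, SCO2, ATPAF1 and ATPAF2). The knockout tables held 70 members among 19114 genes, with 4 guides each and 280 guides in all. The activation tables held 67 members among 18886 genes, with 195 guides. By complex, the knockout members were 6 of complex II, 13 of complex III, 29 of complex IV and 21 of complex V, and CYCS. Complex V here includes ATP5SL, a factor known from complex I assembly, and ATP5S, which came in by symbol and not as ATP synthase subunits. ATP5F1, ATP5J2 and the read-through locus ATP5J2-PTCD1 were named in the knockout tables alone. The files use older symbols for 19 members, such as ATP5A1 for ATP5F1A, ATP5B for ATP5F1B, ATP5D for ATP5F1D and ATP5SL for DMAC2.

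The respiratory chain of the inner mitochondrial membrane passes electrons from nutrients to oxygen and stores the energy as a proton gradient. Complex II, succinate dehydrogenase, is also an enzyme of the citric acid cycle and feeds electrons to ubiquinone. Complex III passes them to cytochrome c, complex IV (cytochrome c oxidase) passes them from cytochrome c to oxygen, and complex V, the ATP synthase, uses the gradient to make ATP. Complex I, the other entry point, is not among the members. Re-oxidation of ubiquinone by complex III is also needed by dihydroorotate dehydrogenase, a step of pyrimidine synthesis, so the chain serves more than ATP production.

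In the knockout screens the cells carried Cas9 and the Brunello guide library, and a guide that lowers fitness is lost from the population. In the activation screens they carried dCas9-VP64, a catalytically dead Cas9 fused to a transcriptional activator, and the Calabrese library. Guides were counted in genomic DNA at day 0, at day 20 without drug, and at day 20 with oxaliplatin, a platinum drug that damages DNA. The drug was used at 1.9 µM in RKO, and at 0.38 or 0.5 µM in SW620. Each of the 4 screens thus had 1 library per condition, 14 in all. With 1 library per condition, every test below compares libraries and not conditions, and floors and intervals cover counting error only. Guides of 1 gene share their target and are not replicates of a condition. SW620 was grown in RPMI and RKO in EMEM, so line and medium cannot be told apart. No expression was measured, so the labelled lines could not be checked against markers.

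Library totals ranged from 3647823 to 69526489 counts. Under drug the counts were concentrated in few guides: the most abundant 1% of guides held 3.03% of counts in RKO knockout cells at day 0, 41.4% at 1.9 µM, 31.5% in SW620 knockout cells at 0.5 µM and 52.8% in RKO activation cells at 1.9 µM. Member guides held 0.341% of RKO knockout counts at day 0, 0.162% at day 20 without drug and 0.109% with drug. In SW620 the shares were 0.351% at day 0, 0.318% untreated, 0.294% at 0.38 µM and 0.252% at 0.5 µM. Of the 280 member guides in RKO, 0 had no counts at day 0, 23 had none in the untreated library and 3 had none in the treated library.

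Values below are scaled counts (counts divided by a library size factor) and the log2 fold of scaled count plus 5, whose median over a gene's guides is the gene's value. A gene passed the fold when this median was beyond 1 in size. It passed the rank test when its guides ranked together at one end of all guides, with an exact null and a Benjamini-Hochberg adjusted p below 0.10 over all genes. The pseudocount makes the fold of a guide with few counts smaller than the ratio of its counts.

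The promoters of 53 members matched the promoter windows of RefSeq genes (GRCh38.p14). Each window was searched whole, and its first 250 bases, those before the gene start, are what is printed below. The letters GCGCATGC, the core of the site known for nuclear respiratory factor 1 (NRF1), a regulator of respiratory chain genes, were searched on both strands, where the reverse complement reads GCATGCGC. They occurred in 13 of these 53 promoters (24.5%), in 20.5% of complex I promoters, 8.11% of mitochondrial ribosome promoters and 4.84% of cytosolic ribosome promoters. Counted by gene symbol, as the members were, they occurred for 3.68% of all symbols, and counted by window in 3.05% of all windows. Of members that fell in RKO untreated growth (below), 5 of 22 promoters held them, and of the other members 8 of 31. A match is a description of these letters and not a measured site, and no binding was measured here. A promoter of complex II, of cytochrome c, of complex IV and of complex V is printed 5′ to 3′ to show the letters, with matches in capitals. In COX17 and ATP5C1 a pair of matches overlap on opposite strands.
SDHB promoter, chr1:17054033-17054282, minus strand: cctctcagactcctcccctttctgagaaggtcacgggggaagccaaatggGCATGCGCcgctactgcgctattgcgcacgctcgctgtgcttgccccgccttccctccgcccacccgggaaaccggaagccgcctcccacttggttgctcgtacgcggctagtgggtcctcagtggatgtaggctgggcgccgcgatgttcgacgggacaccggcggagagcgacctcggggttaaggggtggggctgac
CYCS promoter, chr7:25125261-25125510, minus strand: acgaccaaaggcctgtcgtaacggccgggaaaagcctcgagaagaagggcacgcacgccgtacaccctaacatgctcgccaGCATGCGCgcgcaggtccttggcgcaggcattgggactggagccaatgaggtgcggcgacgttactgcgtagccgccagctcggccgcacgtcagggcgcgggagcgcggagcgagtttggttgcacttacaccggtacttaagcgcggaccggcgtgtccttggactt
COX17 promoter, chr3:119677407-119677656, minus strand: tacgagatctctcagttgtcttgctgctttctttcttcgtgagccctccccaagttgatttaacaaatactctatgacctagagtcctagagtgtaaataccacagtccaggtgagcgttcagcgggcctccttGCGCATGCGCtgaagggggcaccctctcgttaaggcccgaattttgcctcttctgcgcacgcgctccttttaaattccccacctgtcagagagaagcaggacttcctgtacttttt
ATP5C1 (ATP5F1C) promoter, chr10:7787927-7788176, plus strand: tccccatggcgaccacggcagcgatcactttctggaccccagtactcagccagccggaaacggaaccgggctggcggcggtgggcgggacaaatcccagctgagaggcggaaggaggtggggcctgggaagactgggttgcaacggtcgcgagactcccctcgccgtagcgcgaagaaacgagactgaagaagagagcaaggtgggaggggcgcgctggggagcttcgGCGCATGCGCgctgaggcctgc

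In RKO cells without drug, knockout of the respiratory complexes was followed by a deep loss of guides between day 0 and day 20. Of 70 members, 45 had a median log2 fold below -1, against 11.6% of 19077 genes tested, and 27 fell by the rank test, against 6.58%. None was higher by that test, against 0.0157% of genes. The median of the members was -2.05, beside 0.09 over all genes. Among single guides, 165 of 280 member guides (58.9%) were below -1, compared with 12.3% of all targeting guides and 0.20% of the 1000 non-targeting guides. The rank test was sensitive to how guides were grouped by abundance. It used bins of the mean count of both libraries, and the median fold of the rarest bin was -2.53, that of the commonest 0.36. With guides binned on the day 0 count, 42 members fell, against 9.79% of genes, and 26 of the 27 were among them. Without that standardisation 43 members fell, against 10.5% of genes.

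**Figure D1:**
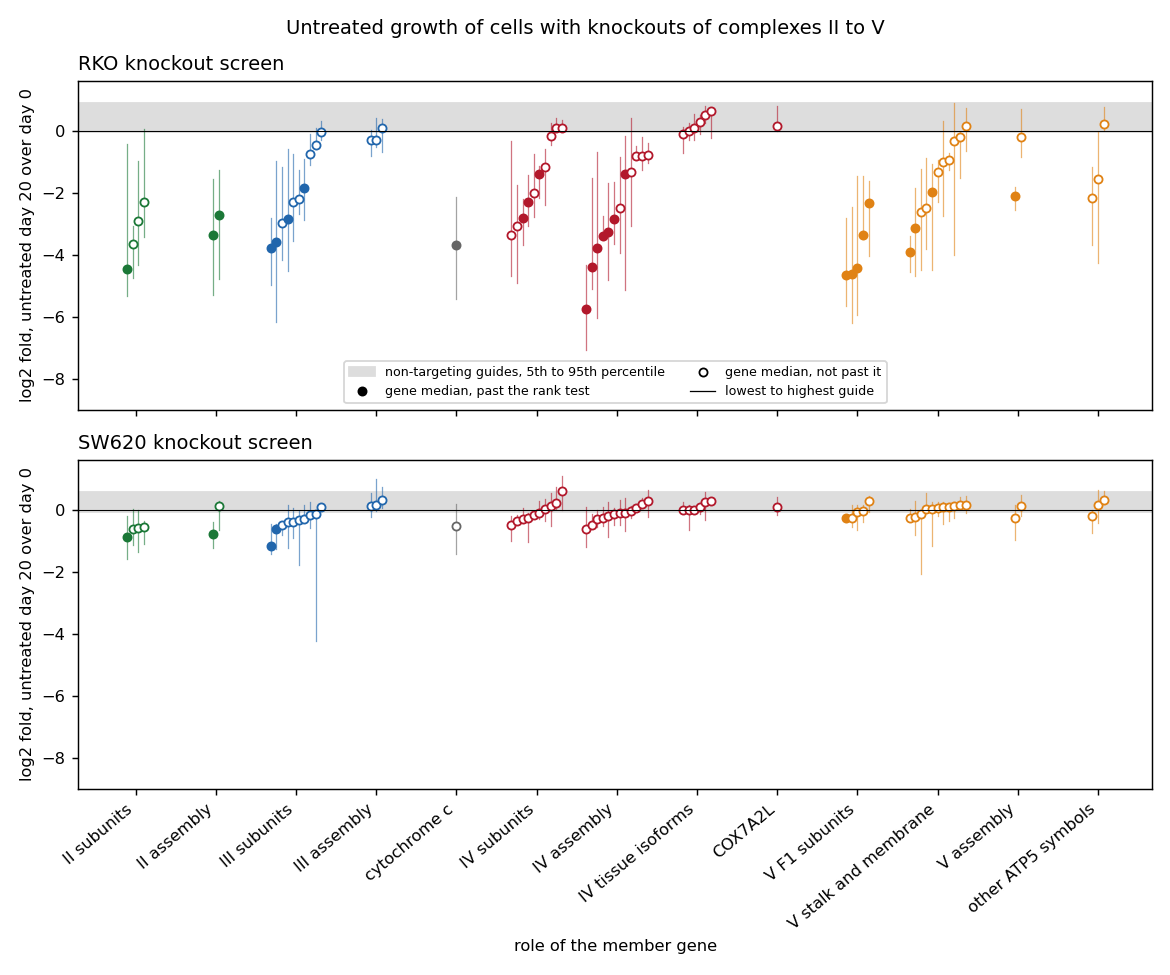
Median log2 fold of each member (points, filled where it fell by the rank test) with its lowest and highest guide (lines), untreated day 20 over day 0, by role, in the RKO (top) and SW620 (bottom) knockout screens. The grey band is the 5th to 95th percentile of the 1000 non-targeting guides. In RKO all 5 F1 subunits and all 6 complex II members lie below -1, and in SW620 the member below -1 is CYC1.

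Complex II had the lowest median of the 4 complexes in RKO, at -3.15. All 6 members were below -1, 3 of them fell by the rank test, and 21 of their 24 guides were below -1. SDHB, the iron-sulfur subunit, had scaled counts of 309, 115, 142 and 198 for its 4 guides at day 0, and 227, 0, 2.16 and 0 at day 20 without drug. Against a floor of 3 counts per library, guide 2 was at least 53.0-fold lower. Guide 4 was at least 91.7-fold lower. Guide 1 stayed near its starting count, and SDHB fell by 4.47 on the log2 scale (adjusted p = 0.0485, exact rank test). The assembly factors fell too: SDHAF1, which helps insert iron-sulfur clusters into SDHB, by 3.38, and SDHAF2, which helps attach flavin to SDHA, by 2.73. SDHA, the flavoprotein that oxidises succinate, went from 131, 605, 80.0 and 146 to 0, 44.7, 5.05 and 6.49. All 4 guides were depleted, yet its median of -3.67 did not pass the rank test (adjusted p = 0.165, exact null). The membrane anchors SDHC and SDHD had medians of -2.92 and -2.31, with adjusted p of 0.579 and 0.150 in the exact rank test. With guides binned on the day 0 count all 6 members of complex II passed. That binning also added members of the other complexes, which are not named here. In the next paragraphs, passing or not passing the rank test refers to bins of the mean count.

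In complex III the subunits and the assembly factors differed. Of 10 subunits, 7 were below -1 and 4 fell by the rank test, with a median of -2.26, while none of the 3 assembly factors did either and their median was -0.30. UQCRC1, a core subunit, had the smallest p of all members: its guides went from 655, 678, 654 and 676 to 26.0, 91.6, 15.9 and 70.0. All 4 fell together, by a median of 3.80 (adjusted p = 8.91e-05, exact rank test). UQCRC2, the other core subunit, went from 602, 654, 353 and 121 to 98.1, 327, 0 and 0, and fell by 3.60. CYC1, cytochrome c1, which passes electrons to cytochrome c, fell by 2.85 with scaled counts of 289.7, 238, 272 and 210.5 at day 0 and 16.6, 59.1, 179 and 4.33 at day 20. UQCR10, a small subunit, fell by 1.85. UQCRFS1, the Rieske iron-sulfur protein, was at -2.31, UQCRB at -2.99 and UQCRQ at -2.22 without passing. UQCRH was at -0.03 and its near-identical copy UQCRHL at -0.74. Guides to such copies may cut both genes, so these values are uncertain. The assembly factors UQCC1, UQCC2 and UQCC3 were at 0.10, -0.32 and -0.30.

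CYCS, the soluble carrier between complexes III and IV, had guides at 81.5, 213, 345 and 325 at day 0 and 14.4, 0, 43.3 and 9.37 at day 20. Every guide was lower, and CYCS fell by 3.69.

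Complex IV held the deepest member, and its other members spread from there to values near 0. Its assembly, copper and haem factors stood lowest: 9 of 12 were below -1, 7 fell by the rank test and the median was -2.66. COX15, an enzyme of haem A synthesis, had guides at 666, 265, 242 and 3.77 at day 0, and 0, 0, 7.21 and 0 at day 20. Guide 4 was too rare at day 0 to be used. Guide 1 was at least 308-fold lower. For guide 2 the bound was at least 122-fold, and COX15 fell by 5.75, the lowest median of any gene tested. COX10, which makes haem O for COX15, fell by 1.41, with its guides ranging from -5.13 to -0.16. SCO2, a copper chaperone, fell by 4.40, COX11, which inserts copper, by 3.77, and COX17, which delivers it, by 3.40. COX16 fell by 2.83 and COX20 by 3.27. SCO1 was at -2.49, COX19 at -1.33, and SURF1, a factor of early assembly, at -0.81, none of them past the rank test.

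The 10 widely expressed complex IV subunits had a median of -1.70, and 3 of them fell: COX5A by 2.29, COX7B by 2.81 and COX7C by 1.39. COX6B1 at -3.37, COX4I1 at -3.09 and COX6C at -2.01 were deep without passing. COX6A1 at -0.19, COX7A2 at 0.07 and COX8A at 0.10 were near 0. COX8A guides stood at 263, 199, 258 and 326 at day 0 and 335, 207, 259.6 and 361 at day 20, so none was depleted. The 6 subunit isoforms of restricted tissue expression (COX4I2, COX6A2, COX6B2, COX7A1, COX7B2 and COX8C) had a median of 0.17, with 0 members below -1 and 0 of their 24 guides below -1. COX7A2L, a factor of supercomplex assembly, was at 0.15.

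In complex V the catalytic head, F1, had the lowest median of the subunit groups, although some stalk and membrane subunits lay below its least depleted members. All 5 subunits of F1 were below -1 and all 5 fell by the rank test, as did 20 of 20 guides by the fold, with a median of -4.43. ATP5A1, the alpha subunit, went from 379, 359.9, 183 and 158 to 2.16, 0, 11.5 and 24.5, with guide 2 at least 166-fold lower. ATP5B, the catalytic beta subunit, went from 305, 323, 15.1 and 244 to 38.9, 7.93, 0 and 0. Guide 3 of ATP5B was too rare to be used. The 2 genes fell by 4.62 and 4.66, the latter over 3 guides. ATP5D, the delta subunit of the central stalk, fell by 4.43, ATP5E (epsilon) by 3.38 and ATP5C1 (gamma) by 2.35. Of 11 peripheral stalk and membrane subunits 7 were below -1 and 3 fell: ATP5H by 3.92, ATP5O, which joins the stalk to F1, by 3.14, and ATP5F1, at -1.97. ATP5G1, ATP5G2 and ATP5G3, which encode the same c-ring protein, were at -0.34, -0.20 and 0.16. The 2 F1 assembly chaperones had different values. ATPAF2, which binds the alpha subunit, fell by 2.09, while ATPAF1, which binds the beta subunit, had guides at 198, 265, 134 and 162 at day 0 and 108, 182, 149 and 265 at day 20, a median of -0.19. ATP5SL was at -2.18 without passing, and ATP5S was at 0.20. Guides assigned to ATP5J2-PTCD1 may share sequence with ATP5J2, and those of ATP5L2 with ATP5L, so their values of -1.57 and -1.01 are uncertain.

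Other factors of the chain, outside the members, were also lost from RKO. Of 21 such genes tested in RKO, 11 were below -1 and 7 fell, with a median of -1.04. TMEM242, a factor of ATP synthase assembly, fell by 2.09, and the complex IV factors COA6, PET100 and PET117 fell by 5.48, 3.10 and 4.59. Complex I had a median of -2.10 with 38 of 47 genes below -1, and the mitochondrial ribosome a median of -2.42 with 70 of 77. The cytosolic ribosome was at -3.19 and olfactory receptors were at 0.17. Relative to the cytosolic ribosome median, complex II reached 98.5%, complex V 65.5%, complex III 58.0% and complex IV 41.6%. These lists differ in make-up: complex IV includes the isoforms of restricted tissue expression, and complex V the c-ring genes and ATP5S. The percentages thus do not rank the complexes.

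In SW620 cells without drug the same guides had folds near 0. Of 70 members 1 was below -1, against 1.20% of 19100 genes tested, and 5 fell by the rank test, against 3.52%. The median was -0.12, beside 0.04 over all genes. Of 280 member guides 20 (7.14%) were below -1, against 2.64% of all targeting guides and 0 of the 1000 non-targeting guides. Depletion overall was smaller in this line: the cytosolic ribosome median was -0.83, with 26 of 77 genes below -1.

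The 5 members that fell in SW620 were in complexes II, III and V. CYC1 fell by 1.16 (adjusted p = 0.0111, exact rank test), with guides at 522, 529, 422 and 450.0 at day 0 and 273, 382, 158 and 164 at day 20. SDHAF1 fell by 0.80, from 1518, 725, 855 and 684 to 1015, 307, 649 and 336. SDHD fell by 0.88, from 573, 328, 488 and 581 to 497, 105, 224 and 366. UQCRC1 fell by 0.62, from 1199, 1166, 1219 and 943 to 722, 819, 498 and 682. All guides of these 4 genes were lower at day 20. ATP5D fell by 0.27, from 836, 754, 743 and 611 to 679.8, 637, 637 and 466, a small shift shared by its 4 guides. Leaving out 1 guide of each gene in turn left 3 to 4 members past the test, against 1.68% to 1.89% of genes. Of the 27 members that fell in RKO, 4 also fell in SW620 (14.8%), and they made up 80.0% of the 5. The matching overlap over all genes was not tested, so these shares do not set the members apart.

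By complex the SW620 medians were -0.61 for complex II, -0.29 for complex III, -0.04 for complex IV and 0.01 for complex V. Complex II had 7 of 24 guides below -1, complex III 6 of 52, complex IV 3 of 116 and complex V 2 of 84. SDHA, SDHB and SDHC lay at -0.55, -0.60 and -0.62 without passing, and CYCS at -0.54. COX15 went from 988, 519, 350.1 and 6.01 to 690.4, 363, 316 and 6.53. Its guide 4 was too rare to be used, and the other guides gave a median of -0.51. ATP5A1 went from 600.2, 621, 424 and 405 to 674, 470.1, 431 and 378, a median of -0.04, so the guides lost from RKO were still present in SW620. UQCRH had 1 guide that went from 303 to 11.4 while its other guides ranged from 698.6 to 1170.3 at day 20, and its median was -0.13. Complex I had a median of 0.18 with 0 of 47 genes below -1. Relative to the cytosolic ribosome median of this line, complex II reached 73.9%, complex III 35.4%, complex IV 5.33% and complex V -1.58%. The limit given above on the make-up of these lists applies here too.

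**Figure D2:**
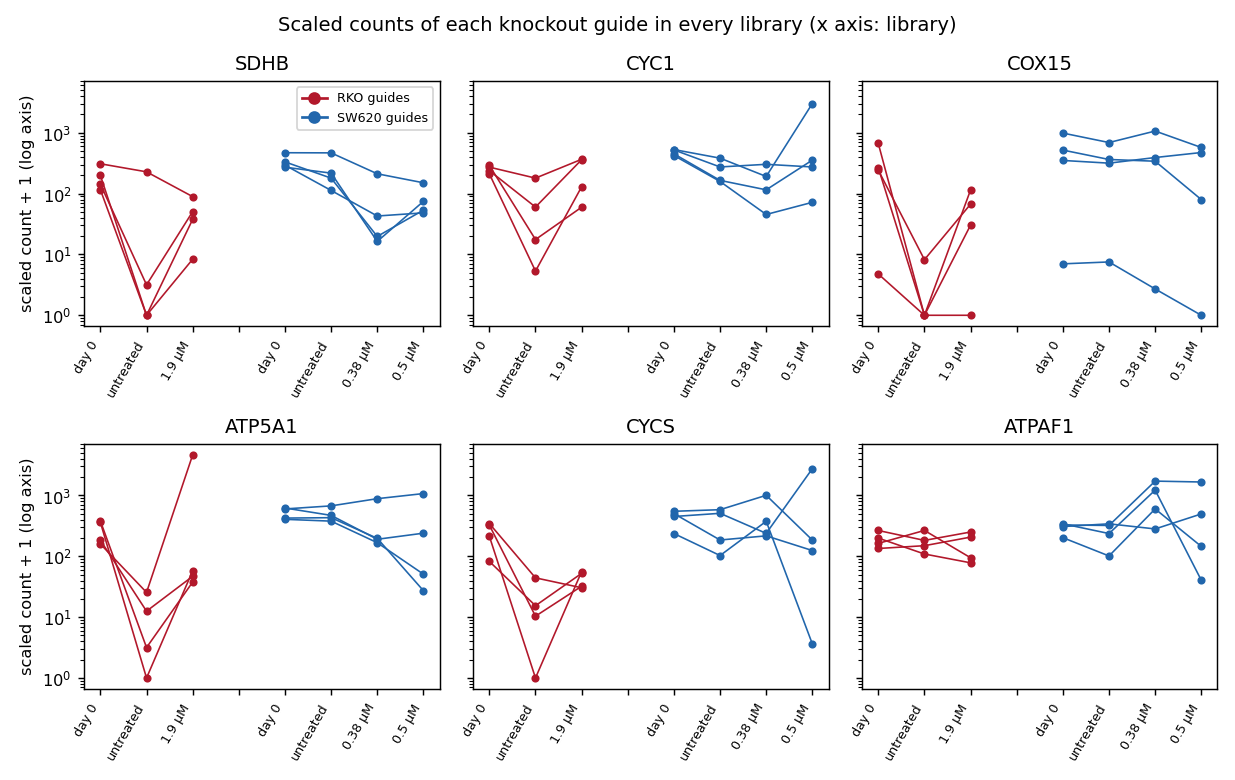
Scaled count plus 1 (log axis) of each guide to SDHB, CYC1, COX15, ATP5A1, CYCS and ATPAF1 in every knockout library, RKO in red and SW620 in blue, with 1 line per guide. In RKO 3 of 4 SDHB guides and all 4 ATP5A1 guides dropped between day 0 and the untreated library, while in SW620 the ATP5A1 guides stayed between 378 and 674.

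The difference between the lines was tested guide by guide, since the same guide library was used. Of 70 members 35 were lower in RKO than in SW620 by the rank test, against 6.97% of 19076 genes, and 44 had a median difference below -1, against 10.3%. None was higher in RKO by the rank test (0.0419% of genes were) and none had a difference above 1 (0.126% of genes had). The median difference was -1.65, beside 0.02 over all genes. By complex, 5 of 6 members of complex II, 5 of 13 of complex III, 12 of 29 of complex IV and 12 of 21 of complex V passed, and so did CYCS. The median differences were -2.69, -0.996, -1.01 and -2.14 for complexes II, III, IV and V. COX15 had the widest difference of the members, at -5.25, followed by ATP5B at -4.83 and ATP5A1 at -4.66. The values of COX15 and ATP5B rest on 3 guides each. SCO2 was at -4.26, SDHB at -3.64, CYCS at -3.48 and UQCRC1 at -3.20. Leaving out 1 guide of each gene in turn left 21 to 26 members past the test, with 22 without guide 2 and 21 without guide 4. The shares of all genes were then 4.46% to 4.93%.

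Because the cytosolic ribosome also differed between the lines, the comparison was repeated after multiplying the SW620 folds by 3.87, the ratio of the ribosome medians (-3.19 and -0.83). This scaling was chosen after the data were seen. It left 9 of 70 members lower in RKO, against 0.792% of genes. Of these, 8 carried an ATP5 symbol, 7 of them subunits of complex V: ATP5A1 at -4.12, ATP5C1 at -3.48, ATP5B at -3.47, ATP5O at -3.19, ATP5D at -3.11, ATP5E at -3.10 and ATP5H at -2.98. The complex I factor ATP5SL, at -3.58, was the remaining one with that symbol. The other member was COX15, at -3.79. None of the 6 members of complex II or the 13 of complex III passed, 1 of 29 did in complex IV, and 8 of the 21 counted with complex V, ATP5SL included. CYC1 changed sign, from -2.15 to 0.44. Scaled in this way, the complexes had median differences of -0.85, -0.70, -1.16 and -2.64 for II, III, IV and V. The median over all genes moved from 0.02 to -0.17. The scaling multiplied each SW620 guide fold, counting error included. A fold above 0 there widened the difference (ATP5SL, from -2.45 to -3.58), and one below 0 narrowed or reversed it (CYC1). Which members stayed past the test thus depended on their SW620 folds, so these counts do not rank the complexes. Culture medium and the extent of depletion moved with the line, and their part in these differences was not tested.

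**Figure D3:**
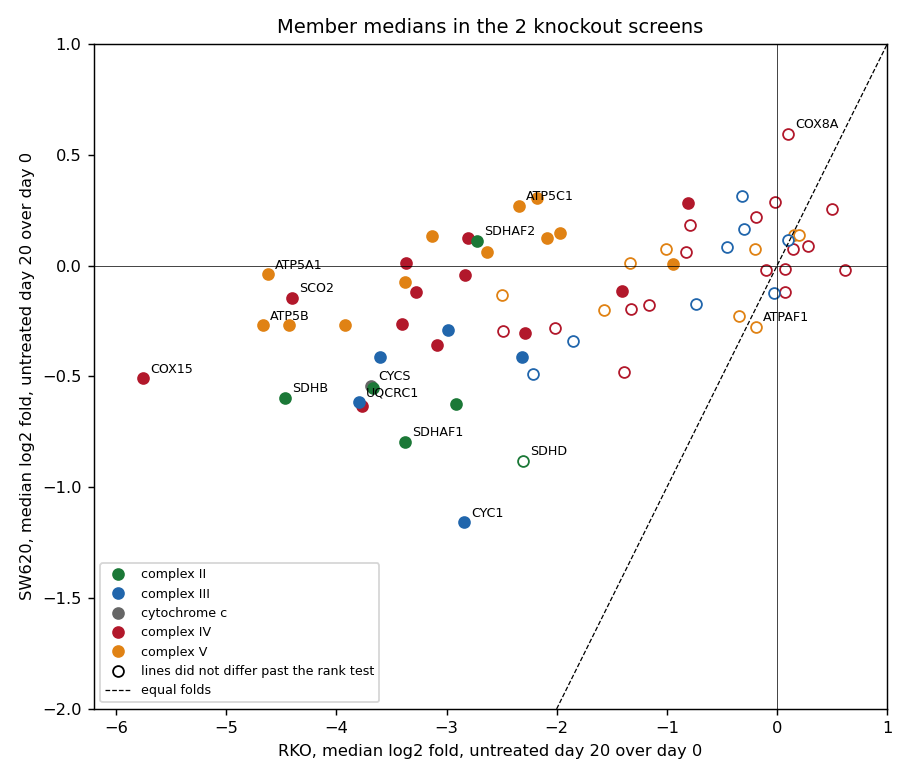
Median log2 fold of each member, untreated day 20 over day 0, in RKO (x axis) and SW620 (y axis), coloured by complex. Filled points differed between the lines by the rank test (35 of 70), and the dashed line marks equal folds. Complex V members spread along the RKO axis while staying near 0 in SW620, and CYC1, SDHD and SDHAF1 lie lowest in SW620.

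Oxaliplatin at 1.9 µM was compared with the untreated RKO library at day 20. The count filter left 9 members with fewer than 3 guides (ATP5H, COX15, COX20, SCO2, SDHA, SDHB, SDHC, UQCRB and UQCRC2), and these were not tested. Without the filter, 23 of all 70 members had a median above 1, against 12.6% of 19107 genes, and 2 were below -1, against 7.35%. The median was then 0.48, beside 0.06 over all genes. With the filter, 16 of 61 were above 1, against 11.3% of 18441 genes, and 2 below -1, against 7.9%. This count depended on the scaling: with libraries scaled by total counts, which moved the median of all genes to -1.27, 2 of 54 members were above 1, against 1.14% of genes. None of the 61 members tested passed the rank test, at which 0.407% of all genes were higher and 0.0108% lower. At an unadjusted p below 0.05, 1 was lower and 14 were higher, against 6.06% and 6.32% of genes. The filter took the mean of the treated and untreated libraries. A guide near 0 untreated was therefore kept only where its treated count was high. This selection favours higher values, and its part in the 14 was not tested. Non-targeting guides had an SD of 0.99 in this comparison and 0.31 in untreated growth, so single guides were far less precise.

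The members with the highest medians under drug had also fallen in untreated growth. Their guides had few counts in the untreated library, which is the control here, so each ratio starts from low counts. Medians in this paragraph are over all 4 guides, without the filter. ATP5A1 guides went from 2.16, 0, 11.5 and 24.5 untreated to 36.8, 56.98, 46.0 and 4650.4 under drug, a median of 3.09, with 1 guide far above the rest. COX15 guides went from 0, 0, 7.21 and 0 to 114, 29.4, 66.2 and 0, a median of 2.66. ATP5B and ATP5D had medians of 2.31 and 2.26. In the exact rank test on guides that passed the filter, their adjusted p were 0.146 and 0.158, and 3 guides of ATP5B gave a median of 2.76. Of these 3, guide 4 went from 0 to 84.6 and passed the filter through its treated count. SDHB, which was not tested, was at 2.12: 3 of its guides were higher, while guide 1 went from 227 to 88.2. CYC1 guides went from 16.6, 59.1, 179 and 4.33 to 58.8, 360.3, 366 and 129, a median of 2.04. UQCRC1 went from 26.0, 91.6, 15.9 and 70.0 to 68.0, 107, 134 and 428, a median of 1.88. All 4 guides of CYC1 and all 4 of UQCRC1 were higher under drug, without passing the rank test.

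Set against day 0, members were low in both day 20 libraries of RKO. The treated library had a median of -1.56 over members with 44 of 70 below -1, against 16.9% of 19080 genes, and the untreated library a median of -2.05. Both share the day 0 library. The treated medians of complexes II, III, IV and V were -2.02, -1.23, -0.83 and -1.48. By the rank test 8 members fell from day 0 under drug, against 2.09% of genes: ATP5D, ATP5O, ATPAF2, COX11, COX5A, CYCS, SDHAF1 and UQCRC1. ATP5O fell by 2.43, UQCRC1 by 2.43 and CYCS by 2.52. The treated median was above the untreated one in 48 of 70 members, against 50.9% of 19072 genes. That share moved with the untreated value. Among genes below -1 untreated it was 76.7% of 2216, and among the members there 37 of 45 (82.2%). Among the other genes it was 47.6%, and among the other members 11 of 25. By complex, 6 of 6 members of complex II, 9 of 13 of complex III, 19 of 29 of complex IV and 13 of 21 of complex V had the higher treated value.

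**Figure D4:**
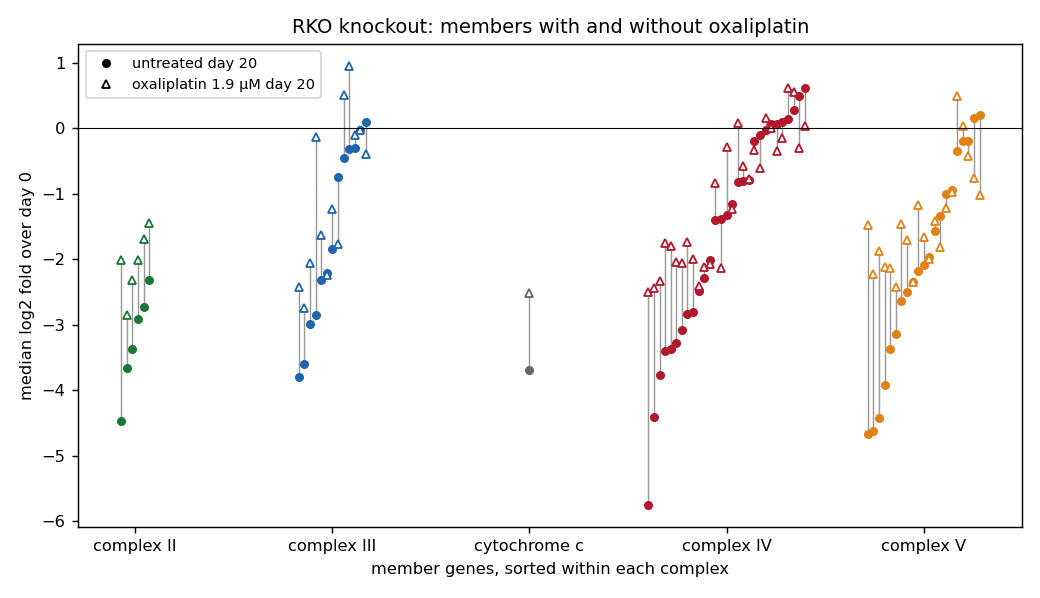
Median log2 fold over day 0 of each member in the untreated (filled circles) and oxaliplatin-treated (open triangles) RKO knockout libraries, sorted within each complex. The treated value lies above the untreated one in 48 of 70 members (68.6%), beside 50.9% of all genes and 76.7% of genes below -1 in the untreated library.

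In SW620 at 0.38 µM, 14 of 70 members (20.0%) had a median below -1 relative to the untreated library, against 8.57% of 19093 genes, and 3 were above 1, against 4.98%. None passed the rank test, at which 0.00524% of genes were lower and 0.0262% higher. At an unadjusted p below 0.05, 6 were lower and 6 higher, against 5.81% and 5.99% of genes. The median was -0.33, beside 0.04 over all genes, and the complexes II, III, IV and V had medians of -0.78, -0.42, -0.31 and -0.30. SDHB was lowest, at -2.13: its guides went from 467, 216, 112 and 179 untreated to 211, 15.4, 41.8 and 18.8. UQCRQ was at -1.87 and SDHA at -1.63. The cytosolic ribosome was at -0.75 in the same comparison. With libraries scaled by total counts 22 members were below -1, against 18.7% of genes. Set against day 0, 2 members fell, against 0.298% of genes, SDHAF1 by 1.78 and UQCRC1 by 2.02.

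The highest member at 0.38 µM was ATPAF1, the chaperone of the F1 beta subunit. Its guides went from 236, 321, 100.4 and 341 to 1225, 1723, 600.4 and 281, so 3 of 4 were higher and 1 was not. The median of 2.38 missed the threshold (adjusted p = 0.138, exact rank test). ATPAF1 passed it without guide 4, the guide that was not higher, and missed it in the other 15 alternatives run. At 0.5 µM its guides stood at 39.4, 1666, 144 and 497, with a median of 0.52. COX6A2, a muscle isoform, and UQCC2 were at 1.78 and 1.36. COX6A2 guides stood at 402, 159.96, 259 and 359.9 untreated and 2843, 995, 506 and 706 at 0.38 µM, and all 4 were higher, without passing (adjusted p = 0.553, exact rank test).

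At 0.5 µM the guides of all genes scattered more. Of 70 members 21 were below -1 and 15 above 1, against 30.4% and 25.1% of 19091 genes, so the members stood near the background. None passed the rank test, at which 0.00524% of genes were lower and 0.00524% higher, and at an unadjusted p below 0.05, 3 were lower and 9 higher, against 6.64% and 6.94% of genes. COX6B1 was lowest at -3.83 and COX6B2 highest at 3.03. With libraries scaled by total counts 56 members were below -1, against 76.4% of genes, and scaled by non-targeting guides 38, against 51.2%. The responses to oxaliplatin were also compared between the lines, at different doses, and 0 of 61 members tested passed in either comparison. At an unadjusted p below 0.05, 3 were lower in RKO against each SW620 dose, beside 5.5% of genes at 0.38 µM and 6.58% at 0.5 µM. At the same threshold 10 and 4 were higher, beside 5.57% and 5.47% of genes. The selection of RKO guides by the count filter, given above, applied here too. Of all genes, 0.0543% and 0.157% were higher in RKO by the rank test.

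Activation of the same genes gave 0 members past the rank test in any of the 5 comparisons. In RKO without drug 62 members had enough guides, their median was 0.06 beside 0.02 over all genes, and 0 were beyond 1, against 0.704% of 18456 genes below -1. The rank test called 0.108% of genes lower. Of the members, 0 were lower and 3 higher at an unadjusted p below 0.05, against 5.43% and 5.5% of genes. ATP5L2 at -0.95 and SDHAF2 at -0.53 had the smallest p for loss, and COX17 at 0.58 and UQCRC1 at 0.63 for gain. In SW620 without drug 65 members had a median of -0.02, 0 were beyond 1 (against 0.389% of 18777 genes below -1), and the rank test called 0.181% of genes lower. Of these members, 2 were lower and 7 higher at an unadjusted p below 0.05, against 5.5% and 5.37% of genes. COX19, a copper factor of complex IV, had guides at 241, 243 and 239.5 at day 0 and 145, 160.2 and 157 at day 20. Its 3 guides were lower by a similar amount, with a median of -0.59 (adjusted p = 0.206, exact rank test). The day 20 values came from 49, 54 and 53 counts, in the library with the fewest counts (3647823). ATP5L2 was at -0.49, COX7A2L at 0.50 and COX4I1 at 0.53.

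The activation screens with oxaliplatin scattered more. In RKO at 1.9 µM, 29 of 61 members were below -1 and 19 above 1, against 47.2% and 26.0% of 18276 genes, and the rank test called 0% of genes in either direction. At an unadjusted p below 0.05, 2 members were lower and 3 higher, against 5.03% and 5.31% of genes. COX4I1, at -4.03, and UQCC3, at -3.32, had the smallest p for loss. ATP5L, at 3.96, and ATP5SL had the smallest p for gain, although the median of ATP5SL was -1.87. In SW620 at 0.38 µM, 0 of 65 members were below -1 and 4 above 1, against 10.8% and 8.80% of 18767 genes. The rank test called 0.0373% of genes higher, and at an unadjusted p below 0.05, 3 members were lower and 3 higher, against 5.22% and 5.14% of genes. SURF1 at -0.71 and COX4I2 at 0.33 had the smallest p for loss, and ATP5C1 at 1.74 and SDHB at 0.59 for gain. At 0.5 µM, 6 were below -1 and 7 above 1, against 15.2% and 12.4% of 18763 genes, with 0.0107% of genes called lower and 0.0426% higher by the rank test. At an unadjusted p below 0.05, 1 member was lower and 4 higher, against 5% and 5.18% of genes. COX4I2 at -0.02 and UQCRH at 0.06 had the smallest p for loss, and SDHB at 0.78 and ATP5L at 1.27 for gain. The rank test standardises folds within bins of mean count, whose median fold ranged from -2.06 in the rarest to 2.67 in the commonest guides here, so a median near 0 can rank low or high. With guides binned on the control count 0 members passed in each of these 3 comparisons.

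**Figure D5:**
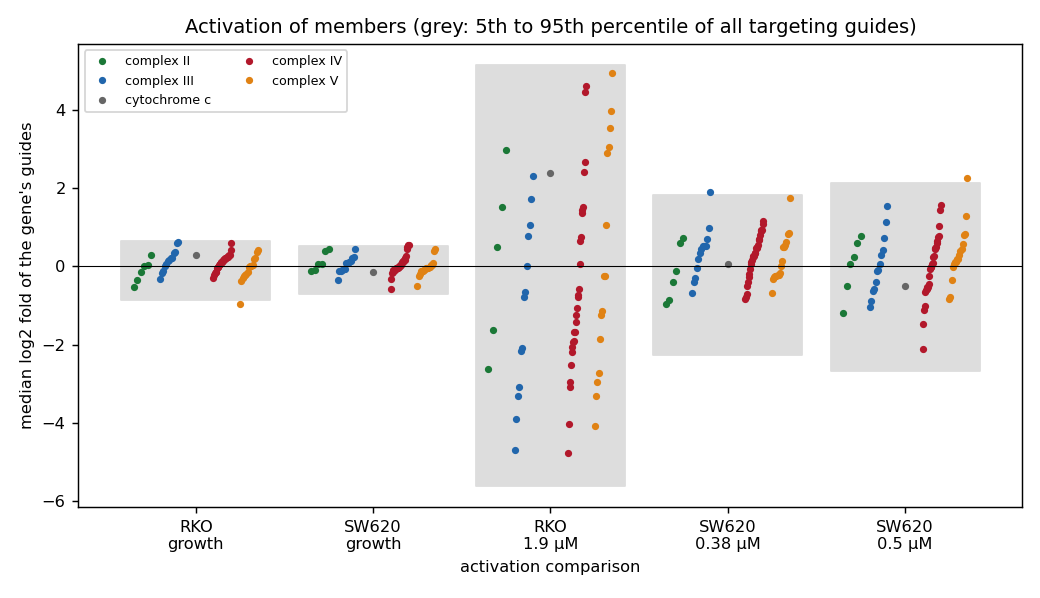
Median log2 fold of each member in the 5 activation comparisons, coloured by complex, with growth as untreated day 20 over day 0 and drug as treated over untreated. Grey boxes span the 5th to 95th percentile of all targeting guides taken singly, while points are gene medians, so the boxes do not compare members with other genes. Members lie within 1 of 0 in both growth comparisons and scatter from -4.76 to 4.93 in RKO at 1.9 µM.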

How the data were processed

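Guide counts came from 14 libraries of 4 pooled screens (RKO and SW620, knockout and activation). The authors deposited raw counts per guide; their normalized tables were not used. The submitters' processing notes name cutadapt 4.0 and MAGeCK 0.5.7, with the role of each, and the genome build, not given in the sources used here. The members and gene lists were chosen with earlier results of these data known; the cytosolic ribosome list and the promoter letters were added later still.

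Counts were divided by median-of-ratios size factors. Log2 folds used a pseudocount of 5, on guides with a mean scaled count of at least 20. Folds were standardised by the median and spread within 50 bins of mean count, and the ranks of a gene's guides were combined (robust rank aggregation, share limit 0.25, exact null), over genes with at least 3 knockout or 2 activation guides. P-values were Benjamini-Hochberg adjusted over all genes and called below 0.10. The code was checked on simulated counts. With 1 library per condition no replicate error exists. Guide counts were named for members past the rank test or, in a complex, with the lowest medians; in activation the members with the smallest p in each direction were named, and outside the members at most 4 genes a comparison. Other genes were named after their values were seen. Alternatives were library scaling (total counts, TMM of edgeR 4.0.16, non-targeting guides), pseudocounts of 1 and 20, count minimums of 0 and 50, bins on the control count, no standardisation, the mean of guides, a share limit of 1, day 0 as control, and leaving out each guide. Python 3.11.15, numpy 2.4.6, scipy 1.17.1 and pandas 2.3.3 were used.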

Additional observations from a re-analysis of the deposited data

Results flagged for a closer look

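The members below differed between the lines by a test of the difference itself, the guide rank test on RKO minus SW620 untreated growth, and are given as median log2 differences, negative where RKO lost more. In complex II these were SDHB at -3.64, SDHA at -3.27, SDHAF2 at -2.92, SDHAF1 at -2.47 and SDHC at -2.29. In complex III they were UQCRC1 at -3.20, UQCRC2 at -3.19, UQCRB at -2.94, CYC1 at -2.15 and UQCRFS1 at -1.72. Cytochrome c (CYCS) was at -3.48. In complex IV the haem and copper factors and other assembly factors were COX15 at -5.25, SCO2 at -4.26, COX11 at -3.21, COX17 at -3.03, COX20 at -2.93, COX16 at -2.79, COX10 at -1.29 and SURF1 at -1.06. The complex IV subunits were COX6B1 at -3.18, COX7B at -2.88, COX4I1 at -2.81 and COX5A at -2.12. In complex V the F1 subunits were ATP5B at -4.83, ATP5A1 at -4.66, ATP5D at -4.09, ATP5E at -3.31 and ATP5C1 at -2.62, and the other members were ATP5H at -3.76, ATP5O at -3.04, ATP5I at -2.65, ATP5F1 at -2.14, ATP5L at -1.18, ATP5SL at -2.45 and ATPAF2 at -2.32. These calls were not equally stable across the alternatives run. UQCRFS1 lost its call in 8, UQCRB in 6, and SDHB, SDHC, SURF1 and ATP5L in 5 each, and CYC1 changed sign in 1. ATP5A1, ATP5B and COX15 kept theirs in all 16. Each line had 1 library per condition, and culture medium moved with the line. The part of the medium was not tested.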

How the results depend on the processing

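Counts of members past the rank test or the fold stayed within 1.5 times of the reported count under most alternatives. In RKO untreated growth the members past the rank test went from 27 to 42 when guides were binned on their day 0 count. They went to 43 when folds were not standardised. With 1 guide of each gene left out they ranged from 20 to 22, against 4.39% to 4.57% of genes. Those past the fold ranged from 43 to 44. In SW620 growth the rank test gave 3 to 4 members with 1 guide left out, against 1.68% to 1.89% of genes. The fold gave 1 to 3, 3 with scaling by non-targeting guides and 2 with the mean of guides. Counts given in this paragraph without a share of all genes describe the members alone and do not set them apart from other genes. For RKO oxaliplatin, members above the fold were 16 of 61, against 11.3% of genes. With total counts they were 2 of 54 (1.14% of genes), and with pseudocount 20, 10 of 61 (9.99%). With count minimum 50 they were 6 of 35 (10.4%), and against day 0, 0 of 70 (9.61%). With 1 guide left out they ranged from 18 to 20, of 63 to 66 tested, against 15.1% to 15.8% of genes. Against day 0, 8 passed the rank test. At 0.38 µM in SW620, members below the fold went from 14 to 22 with total counts. They ranged from 12 to 17 when 1 guide was left out, against 11.1% to 11.6% of genes. The rank test gave 2 against day 0 and 0 to 1 with 1 guide left out. At 0.5 µM members below the fold went from 21 to 56 (total counts) and 38 (non-targeting guides). They ranged from 20 to 26 when 1 guide was left out, against 34.8% to 36.4% of genes. The difference between lines in growth went from 35 to 9 with SW620 folds scaled to the cytosolic ribosome, where CYC1 was reversed to 0.44. The count ranged from 21 to 26 with 1 guide left out, against 4.46% to 4.93% of genes. The fold count ranged from 42 to 44. Leaving out a guide leaves fewer guides per gene; the cause of the other changes was not tested. Scaling by non-targeting guides moved the median of all genes in RKO growth from 0.09 to -0.41. The activation comparisons gave 0 members past the rank test under every alternative run; leaving out guide 4 was not run there. No paired analysis was possible because each condition has 1 library and the labels carry no replicate numbers.

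Depth limits single guides: 23 of 280 member guides were at 0 in the untreated RKO library, so their folds are lower bounds. With 52.8% of counts in the top 1% of guides, the treated RKO activation library carries little information per guide. The untreated SW620 activation library had the fewest counts, 3647823, with a median of 62 per guide. It was also the control for both SW620 activation drug comparisons.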

Other observations

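ATP5SL was at -2.18 in RKO and 0.31 in SW620 untreated growth, where complex I had medians of -2.10 and 0.18. Complex V, with which ATP5SL is counted here, had medians of -2.09 and 0.01. These values do not place ATP5SL with either complex. ATP5S was at 0.20 and 0.14.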
